A study of Mus musculus with 6 samples.

Results

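Imprinted genes are transcribed mainly or only from the copy inherited from the mother or from the copy inherited from the father. The 38 genes described here are known mouse imprinted genes, taken by name, with the Peg10 cluster on proximal chromosome 6 left out. They were chosen with earlier results of these data known. All 38 were rows of the 54658 genes listed in each count table, and 29 of them were among the 17563 genes with enough counts to be tested. The samples were nucleus accumbens, a part of the ventral striatum, from male C57BL6 mice bought as adults of 8 weeks. In 3 samples a herpes simplex virus p1005+ vector had delivered Gas5, a long noncoding RNA, and EGFP, and in 3 it had delivered EGFP alone, called GFP here. All animals thus received a virus and EGFP, there was no uninjected group, and the labels say neither what share of cells was infected nor whether a sample was 1 mouse or a pool. Nothing says that the samples came from separate animals, so p-values measure only the spread between these samples. The series title concerns Gas5 in the action of cocaine, and none of the 6 samples is labelled with cocaine. Values of 3 libraries are given below in the order A, B, C.

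Imprinting is set in the germ line by DNA methylation at control regions, and each control region governs a cluster of neighbouring genes. Clusters often pair protein-coding genes read from the copy of one parent with noncoding RNAs read from the copy of the other. Many of these genes act on growth, on hormone levels and on the development and behaviour controlled by the brain, and several are expressed from different copies in neurons and in other cells. The counts carry no information on alleles, so the copy named for each gene below is background knowledge and not a measurement.

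Total counts ranged from 32359052 to 56081575 per library. Gas5 itself stood at 22.6, 23.3 and 23.6 CPM (counts scaled to the size of the library) with Gas5 and at 18.6, 16.5 and 18.3 CPM with GFP, a log2 fold change of 0.38 (edgeR quasi-likelihood test, adjusted p = 0.0163). The adjusted p was 0.0727 without GFP B and 0.0677 without GFP C. Both groups expressed the medium spiny neuron markers of the accumbens, all 14 of which had counts, at a summed 5926 to 7754 CPM with Gas5 and 6990 to 7881 CPM with GFP. Markers of cortical excitatory neurons differed between the groups, with 8 of 11 lower in the Gas5 libraries, none at 0, and a summed level of 189 to 247 CPM against 413 to 554 CPM. Their mean log2 CPM, the cortical marker score, was 1.997, 2.67 and 2.86 with Gas5 and 3.85, 4.34 and 4.39 with GFP. Of the 17563 tested genes, 5.44% passed an adjusted p of 0.05, 1.48% as higher and 3.96% as lower with Gas5.

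The tables do not measure every imprinted gene. Lengths equal the whole span of a gene, introns included, and none of 1237 protein-coding genes whose span lies wholly within other listed genes had a count. Reads in a shared stretch were therefore not counted, on either strand. The paternally expressed genes Ndn and Magel2, which encode MAGE family proteins, and Mkrn3, which encodes a makorin ring finger protein, lie whole within the listed gene Gm32061 on chromosome 7 and were at 0 in all 6 libraries. Igf2, the growth factor gene, had 3 of its 16051 bases outside other genes, and the noncoding RNA Kcnq1ot1 had none outside Kcnq1. Both were at 0 as well. Rtl1, a gene of retrotransposon origin on the paternal copy of chromosome 12, was also at 0 in all libraries, although only 4.79% of its span is shared. For the other 5 genes the 0 gives no information on expression. Rtl1 had no counted read over 10604 unshared bases. The counting setting that gave this is not stated, so the 0 was not read as absence of Rtl1 RNA.

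**Figure D1:**
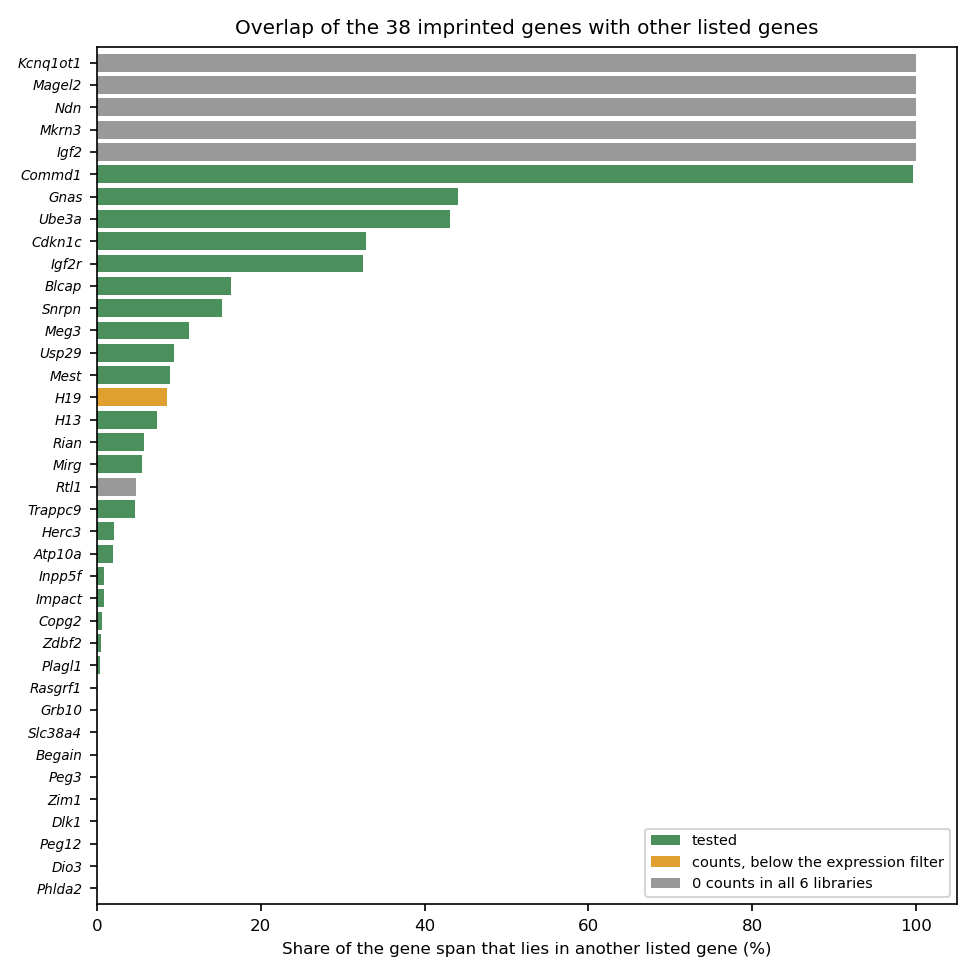
Share of each gene's span, in percent on the horizontal axis, that lies inside another listed gene, for the 38 imprinted genes. Bars in grey mark the 6 genes at 0 counts in all libraries, 5 of them at or near 100%, and Commd1 at 99.7% was tested on the remainder.

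Of the 29 tested genes, 4 rose and 0 fell in the Gas5 libraries, or 13.8%, beside 5.44% of all tested genes. The 4 were Dio3, Grb10, Zdbf2 and Blcap. Positive log2 fold changes were found for 23 of the 29 and negative ones for 6. The positive share was 79.3%, beside 54.2% of all tested genes. The median log2 fold change of the 29 was 0.09, against 0.02 over all tested genes. The groups did not overlap for 14 of the 29 (11 higher and 3 lower with Gas5), beside 27.7% of all tested genes. These counts cover only the genes that passed the expression filter. The imprinted genes were chosen with earlier results of these data known. The shares are thus descriptions, and no p was computed over the list. Without that filter edgeR called 10 of the imprinted genes, 9 higher and 1 lower, beside 5.79% of all genes then tested. In bulk tissue, fewer cells of a type and less RNA per cell cannot be told apart.

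The calls changed with the libraries used. Without GFP B edgeR called 0 of the 29 and 0.642% of all genes then tested. An unadjusted p under 0.05 was found for 9 of the 29 and for 15.1% of all genes in that fit. Without GFP C it called 0 of the 29 and 0.599% of all genes, with an unadjusted p under 0.05 for 9 of the 29 and 15.5% of all genes. With all libraries that p was found for 11 of the 29 and 21.4% of all genes. Without Gas5 A 2 were called, Dio3 and Grb10. In the fit that adds the cortical marker score edgeR called 0 of all tested genes, with 2.25% of them and 2 of the 29 at an unadjusted p under 0.05. In that fit 10 of the 29 had a positive log2 fold change, and the median was -0.07. Group and score separate the libraries in the same way, so their parts cannot be told apart here.

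**Figure D2:**
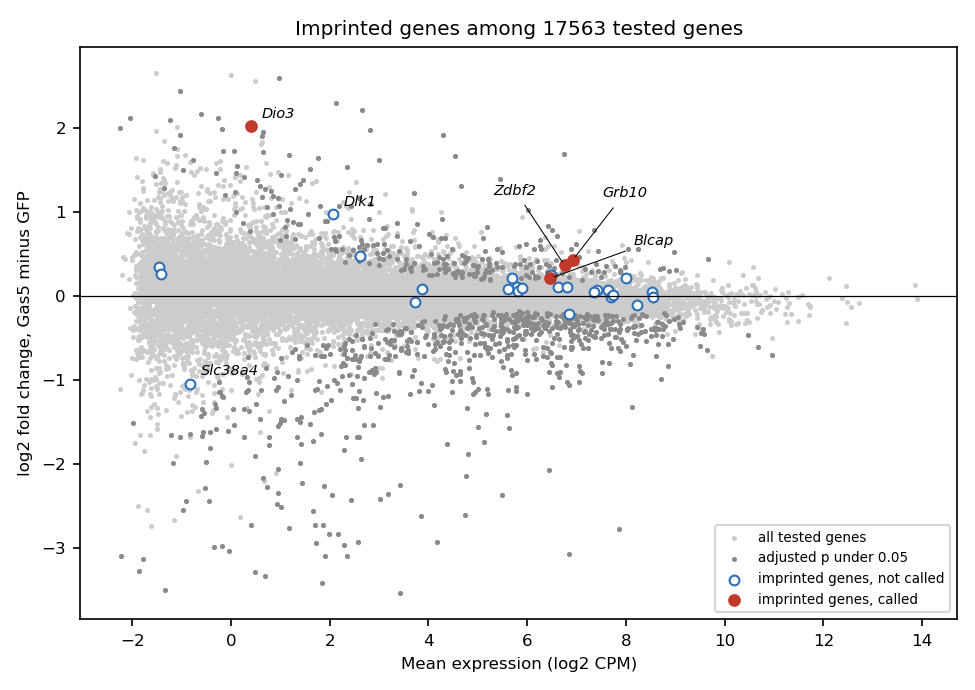
Log2 fold change (Gas5 minus GFP) against mean log2 CPM for 17563 tested genes, each a point. Of the 29 imprinted genes (circles), Dio3 at 2.02 lies farthest from 0 and the other called genes, Grb10, Zdbf2 and Blcap, lie between 0.21 and 0.43.

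Dio3 showed the largest difference. It encodes the deiodinase that inactivates thyroid hormones and is read mainly from the paternal copy at the far end of the Dlk1-Dio3 domain (GRCm38, chromosome 12, 110279068 to 110281097, plus strand, a single exon with no shared base). Counts were 108, 98 and 50 with Gas5 and 42, 12 and 11 with GFP. As CPM these were 2.505, 2.29 and 1.29 against 0.756, 0.311 and 0.346. The groups did not overlap, and GFP A and Gas5 C were closest to each other. The group means were 2.03 CPM ± 0.648 and 0.471 CPM ± 0.247 (SD, n = 3 each). Dio3 rose 4.07-fold, or 2.02 on the log2 scale, with a standard error of 0.375 (edgeR adjusted p = 0.0224). The adjusted p was 0.10 without GFP B and 0.108 without GFP C. Without GFP A the log2 fold change was 2.62 (adjusted p = 0.0142). The score fit put it at 0.25 on the log2 scale (adjusted p = 1.0).

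The noncoding RNA gene Dio3os starts on the other strand beside Dio3, 895 bases away, and rose with it. Its counts were 67, 46 and 48 with Gas5 and 35, 9 and 7 with GFP, a log2 fold change of 1.72 with a standard error of 0.380 (edgeR adjusted p = 0.0397). Again the groups did not overlap and GFP A was the highest of the GFP libraries. Ppp2r5c, the nearest tested gene on the other side of Dio3 at 166 kb, had a log2 fold change of -0.04 and was not called. The call for Dio3os was lost in the fits without GFP B (adjusted p = 0.147) or GFP C (0.141) and without any single Gas5 library (0.0503 to 0.088), and the score fit put its log2 fold change at 0.20. Without GFP A it was 2.49 (adjusted p = 0.00963).

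Dlk1, which encodes a membrane protein related to Notch ligands and is expressed from the paternal copy, begins the same domain. It stood at 6.52, 6.27 and 3.51 CPM with Gas5 and at 3.49, 2.33 and 2.36 CPM with GFP. Gas5 C lay just above GFP A, and the other Gas5 libraries lay well above. The log2 fold change of 0.97 had a standard error of 0.255 and did not pass the test (edgeR adjusted p = 0.0648). It passed with DESeq2 (0.00329), without the expression filter (0.00523) and without Gas5 C (0.0203), and its sign turned, to -0.40, in the score fit.

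The maternally expressed noncoding RNAs that lie between Dlk1 and Dio3 had small differences. Meg3 had means of 174 CPM ± 4.93 with Gas5 and 166 CPM ± 6.03 with GFP (SD, n = 3 each), a log2 fold change of 0.07. Rian, which hosts small nucleolar RNAs, had a log2 fold change of 0.11, and Mirg, which hosts microRNAs, also 0.11. Adjusted p lay between 0.208 and 0.434 for these 3 genes. In Mirg alone of them the groups did not overlap, at 112 to 120 CPM against 106 to 110 CPM. Begain, which encodes a protein bound to a synaptic guanylate kinase scaffold, lies outside Dlk1 and had 98.9, 94.1 and 98.4 CPM with Gas5 against 89.4, 82.4 and 73.1 CPM with GFP. Its log2 fold change was 0.25 (adjusted p = 0.0842). Wdr25, next to Begain, had 0.16 (adjusted p = 0.162).

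The 6 tested genes of the domain that are among the 38 had positive log2 fold changes, from 0.07 to 2.02, and 1 of them was called. Over all tested genes 54.2% had positive values and 5.44% were called. Other tested genes in the same stretch included B830012L14Rik, between Rian and Mirg, at -0.10 and Mir544 at -0.14, neither of them called. Gm34667, between Mirg and Dio3, had 0.72 and was not called. Its groups overlapped, and Gas5 B was the highest library, at 18.1 CPM. In the score fit the values of Rian, at -0.04, and Dlk1 were negative, and that of Begain was 0.0013. Per kilobase of unshared span in the GFP libraries, Meg3 was at 6.07 CPM, Mirg at 5.82, Begain at 2.27, Rian at 1.75, Dlk1 at 0.259 and Dio3 at 0.232 CPM. Dio3os, which is not among the 38, was at 0.134 CPM per kilobase.

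**Figure D3:**
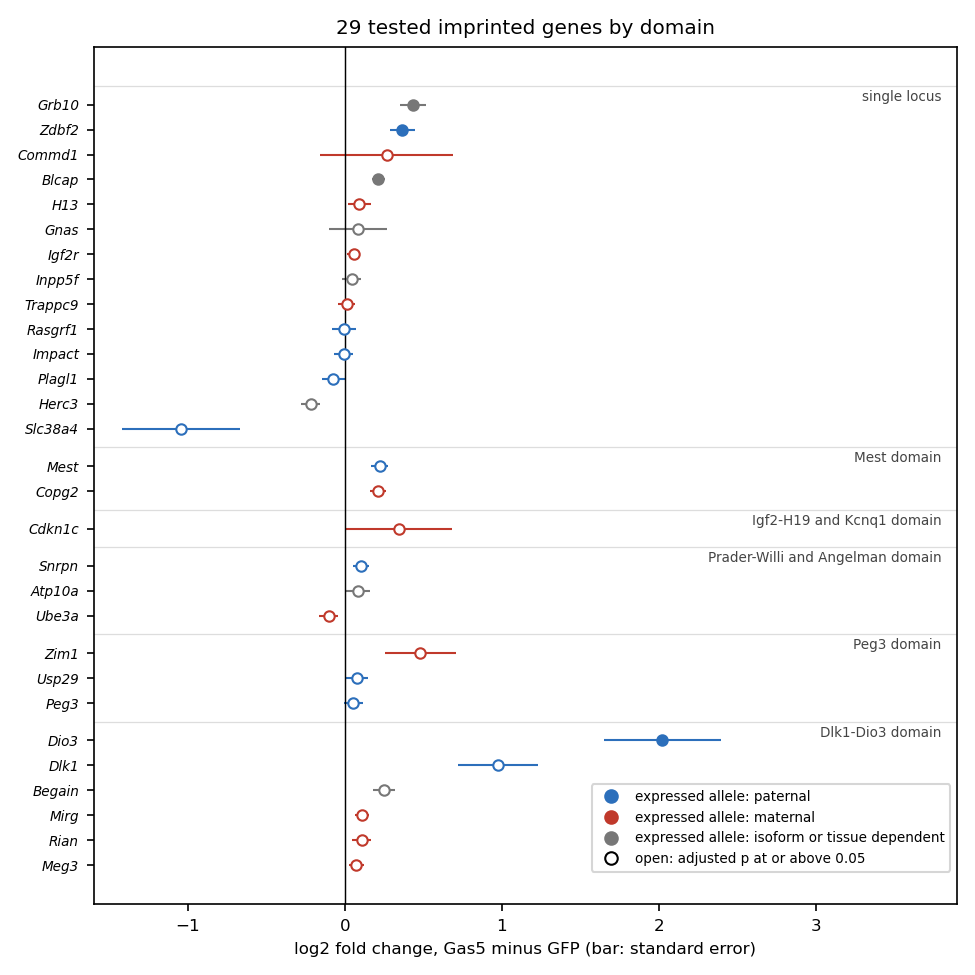
Log2 fold change (Gas5 minus GFP, horizontal axis) with its standard error for the 29 tested imprinted genes, grouped by domain and coloured by the copy known to be expressed. Filled circles mark the 4 called genes, and Slc38a4 at -1.04 is the lowest.

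Grb10 encodes an adaptor protein that dampens insulin and growth factor receptor signalling. It is expressed from the paternal copy in neurons and from the maternal copy in most other tissues. The gene lies on chromosome 11 from 11930508 to 12038683, minus strand, with no base shared and 8.40% of its span in exons. It stood at 155, 134 and 130 CPM with Gas5 and at 109, 107 and 93.9 CPM with GFP. The groups did not overlap, and Gas5 A was the highest. The means were 139.5 CPM ± 13.8 and 103 CPM ± 8.19 (SD, n = 3 each), a 1.35-fold increase with a log2 fold change of 0.43 and a standard error of 0.082 (edgeR adjusted p = 0.0241). The adjusted p was 0.0894 without GFP B and 0.108 without GFP C. In the score fit its log2 fold change was -0.06.

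Ddc, the neighbour of Grb10 in the same imprinted domain, encodes the decarboxylase that makes dopamine and serotonin. It was on the list of other imprinted genes and rose with Grb10. It stood at 11.8, 8.28 and 7.15 CPM with Gas5 and at 4.84, 4.88 and 4.596 CPM with GFP. The GFP libraries lay close together and all Gas5 libraries lay above them. Ddc rose by 0.93 on the log2 scale, with a standard error of 0.174 (edgeR adjusted p = 0.0236), and the score fit put it at -0.13. The call was lost without any single GFP library, at an adjusted p of 0.0543 to 0.113. The genes that flank this pair were not called higher. Fignl1, beyond Ddc, had a log2 fold change of 0.97 and was not called (adjusted p = 0.101). Cobl, an actin nucleator gene on the other side of Grb10, fell by 0.48 on the log2 scale (edgeR adjusted p = 0.0473), a call lost under upper quartile scaling and in 5 of the 6 fits that left out a library, the exception being GFP A.

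Zdbf2, a zinc finger gene expressed from the paternal copy, stood at 132, 115 and 118 CPM with Gas5 and at 103, 94.7 and 85.7 CPM with GFP. The means were 122 CPM ± 9.36 and 94.4 CPM ± 8.59 (SD, n = 3 each). The groups did not overlap. Zdbf2 rose by 0.37 on the log2 scale, with a standard error of 0.0782 (edgeR adjusted p = 0.0352). The score fit put it at -0.09. The adjusted p was 0.0747 and 0.0652 without Gas5 A and Gas5 C, and 0.138 and 0.136 without GFP B and GFP C. The gene lies on chromosome 1 from 63273265 to 63314576, plus strand, and 30.6% of this span is exon. The nearest tested genes on the list of other imprinted genes were Gpr1, upstream, at 1.6, 1.24 and 1.34 CPM with Gas5 and 0.8997, 1.19 and 0.724 CPM with GFP, and Adam23, downstream. Gpr1 had groups that did not overlap and a log2 fold change of 0.56, Adam23 had 0.03, and neither was called (adjusted p = 0.197 and 0.867). The nearest tested genes not on a list of imprinted genes, Eef1b2 and Mdh1b, had 0.05 and 0.48 and were not called.

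Blcap, whose product was named for its loss in bladder cancer and which is read mainly from the maternal copy in brain, showed the smallest of the called differences. It stood at 95.9, 94.2 and 94.5 CPM with Gas5 and at 81.9, 83.4 and 80.3 CPM with GFP. Neither group spanned more than a few CPM and they did not overlap. The 1.16-fold increase had a log2 fold change of 0.21 and a standard error of 0.0404 (edgeR adjusted p = 0.0242). The score fit gave 0.17 (adjusted p = 1.0). The adjusted p lay between 0.0581 and 0.127 in 5 of the 6 fits that left out a library, the exception being Gas5 B. Nnat, the paternally expressed neuronatin gene, lies whole within an intron of Blcap and was at 0. The span of Nnat is the 16.4% of Blcap that is shared and was not counted.

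**Figure D4:**
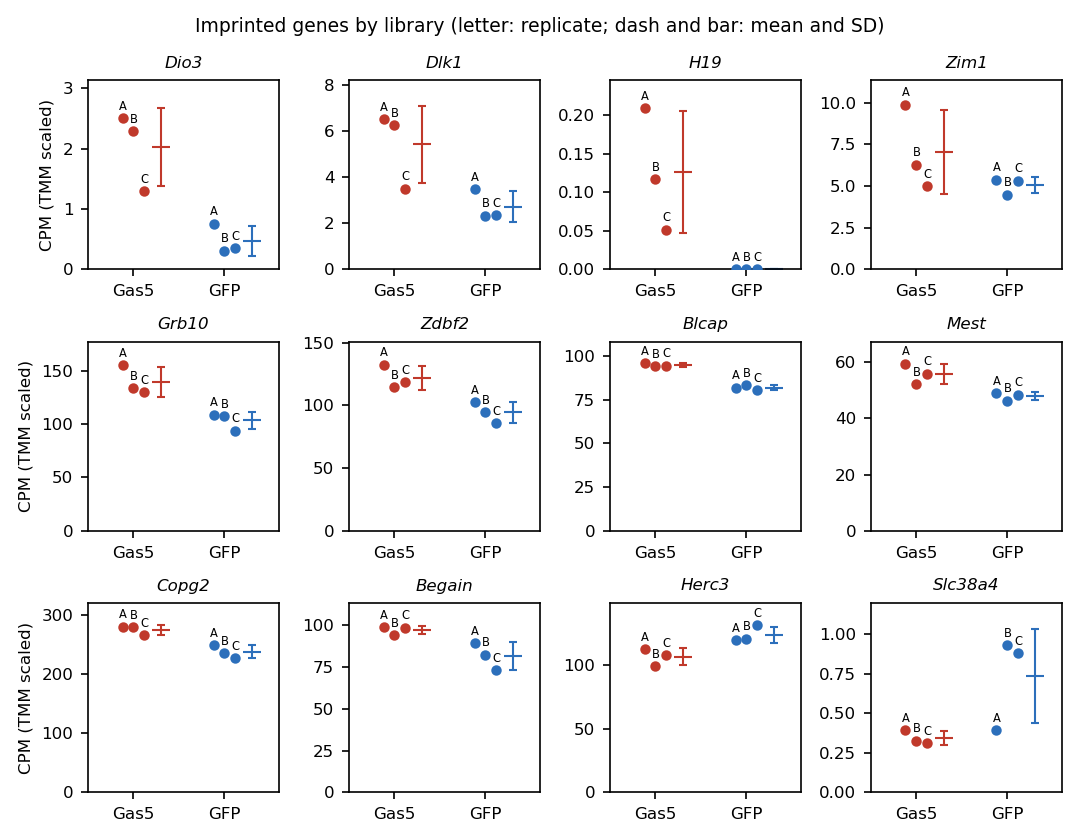
CPM in each library (points, letters give the replicate) with the group mean and SD for 12 imprinted genes, each panel with its own axis from 0. Dio3, Grb10, Zdbf2 and Blcap are the called genes, and Gas5 A is the highest library in every panel except those of Herc3 and Slc38a4.

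Promoters are shown for the 4 genes called higher with Gas5. Whether these genes vary together was not tested. Control regions of imprinting are rich in CG pairs, and several of them lie at promoters. Each is the 250 bases before a RefSeq transcript start on GRCm38.p6, read in the direction of the gene. Capitals mark the hexamer TGCCGC on either strand, the core of the site bound by the imprint-keeping factor Zfp57 when it is methylated, and no other motif was searched. The first Zdbf2 window precedes a RefSeq transcript that starts upstream of the counted span, and the second lies at the counted start.
Zdbf2 upstream (chr1:63200108-63200357, plus): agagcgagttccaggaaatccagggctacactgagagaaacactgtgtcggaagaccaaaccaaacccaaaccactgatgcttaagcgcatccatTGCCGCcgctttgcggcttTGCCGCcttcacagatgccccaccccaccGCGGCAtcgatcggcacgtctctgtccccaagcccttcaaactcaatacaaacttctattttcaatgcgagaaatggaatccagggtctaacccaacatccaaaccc
Zdbf2 (chr1:63273019-63273268, plus): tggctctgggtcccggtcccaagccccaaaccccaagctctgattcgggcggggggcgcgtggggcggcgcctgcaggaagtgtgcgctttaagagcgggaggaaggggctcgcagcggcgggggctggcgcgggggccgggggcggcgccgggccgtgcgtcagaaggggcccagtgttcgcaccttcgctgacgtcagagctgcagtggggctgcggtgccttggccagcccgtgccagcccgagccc
Blcap (chr2:157566362-157566611, minus): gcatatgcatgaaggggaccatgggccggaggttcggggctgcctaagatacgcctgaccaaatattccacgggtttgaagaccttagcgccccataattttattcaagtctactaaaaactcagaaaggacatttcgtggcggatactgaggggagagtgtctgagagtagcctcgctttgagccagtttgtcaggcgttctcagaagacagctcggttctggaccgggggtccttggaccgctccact
Grb10 (chr11:12037421-12037670, minus): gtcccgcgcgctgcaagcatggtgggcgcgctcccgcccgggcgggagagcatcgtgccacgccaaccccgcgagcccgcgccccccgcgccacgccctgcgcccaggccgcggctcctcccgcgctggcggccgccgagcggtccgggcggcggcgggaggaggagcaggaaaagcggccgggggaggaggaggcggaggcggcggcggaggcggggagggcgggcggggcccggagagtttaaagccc
Dio3 (chr12:110278980-110279229, plus): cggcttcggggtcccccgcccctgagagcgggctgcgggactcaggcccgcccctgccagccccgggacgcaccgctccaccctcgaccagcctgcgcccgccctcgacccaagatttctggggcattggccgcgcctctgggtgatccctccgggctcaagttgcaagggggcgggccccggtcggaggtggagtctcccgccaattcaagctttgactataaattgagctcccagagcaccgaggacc
The upstream Zdbf2 window held 3 matches and the other 4 printed windows none. A second Grb10 window, at an inner transcript start, is not printed and held no match and 8 CG pairs. Windows were found for 33 of the 38 genes. Of these, 6 held the hexamer in at least 1 window (Zdbf2, Mest, Copg2, Zim1, Plagl1 and Meg3), or 18.2%. The share was 9.84% of all 27025 genes with windows of this length. A gene with more windows has more chances to hold it. Counted by window, 7 of 54 held it, or 13%, beside 8.68% of all 32851 windows. The median number of CG pairs per window was 13 for the imprinted genes and 6 over all windows. Of the printed windows, that of Grb10 held 40 CG pairs, that of Dio3 21, that of Blcap 12, and those of Zdbf2 13 upstream and 26 at the counted start. These are descriptions of the sequence, and no methylation was measured.

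Mest and Copg2 meet tail to tail on chromosome 6. Mest, which encodes a hydrolase and is paternally expressed, had 59.3, 52.0 and 55.9 CPM with Gas5 and 48.8, 46.3 and 48.3 CPM with GFP. Copg2, which encodes a coat protein of transport vesicles and is reported as maternally expressed, had 281, 280.0 and 266 CPM with Gas5 and 249.8, 237 and 228 CPM with GFP. In both genes the groups did not overlap. Their log2 fold changes of 0.22 and 0.21 had standard errors of 0.0568 and 0.0525 and adjusted p of 0.0614 and 0.0560, so neither was called. Both passed under upper quartile scaling, at 0.0459 and 0.0461, and without the expression filter, at 0.0345 and 0.0331. In the score fit their log2 fold changes were 0.007 and 0.026, and with any single library left out Copg2 was not called and Mest was called without Gas5 B alone.

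The Peg3 domain on chromosome 7 had no called gene. Peg3 encodes a zinc finger protein, is read from the paternal copy and had the highest level per kilobase of unshared span of the tested genes, 13.6 CPM in the GFP group. It stood at 404.5, 353 and 369.9 CPM with Gas5 and at 366, 367 and 353 CPM with GFP. The groups overlapped, and the log2 fold change was 0.05 (adjusted p = 0.653). Usp29, a ubiquitin protease gene that shares the Peg3 promoter region on the other strand, had a log2 fold change of 0.08. Zim1, a maternally expressed zinc finger gene, stood at 9.88, 6.29 and 5.01 CPM with Gas5 and at 5.38, 4.49 and 5.32 CPM with GFP. Gas5 A stood apart there and Gas5 C lay within the GFP range, and its log2 fold change of 0.48 was not called (adjusted p = 0.266).

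In the Prader-Willi and Angelman domain 3 of the 7 imprinted genes described here could be tested and none was called. Snrpn, which encodes a spliceosome protein and is paternally expressed, had a log2 fold change of 0.10, but only 5.84% of its exonic bases lie outside other genes. Gm38393, the placeholder gene with the largest overlap with Snrpn, lies on the same strand. Its level fell by 0.25 on the log2 scale (edgeR adjusted p = 0.0458). Ube3a, the ubiquitin ligase gene lost in Angelman syndrome and maternally expressed in neurons, had 297, 264 and 302 CPM with Gas5 and 312, 311 and 303 CPM with GFP. All GFP libraries lay above all Gas5 libraries, by a narrow margin, with a log2 fold change of -0.10 and a standard error of 0.0606 (adjusted p = 0.375). The placeholder gene 9330162G02Rik, which has the largest overlap with Ube3a, fell by 0.34 on the log2 scale, from 22.1 CPM ± 0.898 to 17.4 CPM ± 0.910 (SD, n = 3 each, edgeR adjusted p = 0.0221). Of the span of Ube3a 43.1% is shared and not counted, and antisense transcripts in the rest cannot be told apart from Ube3a because the counting used no strand. Snhg14, the paternal transcript that runs into Ube3a from the opposite strand, had means of 1002 CPM ± 31.0 and 1097 CPM ± 53.8 (SD, n = 3 each) and a log2 fold change of -0.13 (adjusted p = 0.268). Atp10a, a phospholipid flippase gene, had a log2 fold change of 0.09. Peg12 had between 1 and 5 counts per library and was not tested.

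In the domain of Igf2, H19 and Kcnq1 the listed genes that could be counted, H19, Cdkn1c and Phlda2, had few counts. Other imprinted genes of that region were expressed without being called, among them Cd81, a tetraspanin gene, at 107 CPM ± 8.597 with Gas5 and 99.6 CPM ± 4.07 with GFP (SD, n = 3 each). H19, the maternally expressed noncoding RNA beside Igf2, had 9, 5 and 2 counts in Gas5 A, B and C and 0 in all GFP libraries. H19 was at 0.128 CPM over the Gas5 group, 5.39-fold the level that 3 counts would give in the GFP group. This ratio takes the 16 Gas5 counts as exact and is not a lower limit. H19 fell below the expression filter, and without that filter edgeR gave an adjusted p of 0.0361. Cdkn1c, a maternally expressed inhibitor of cyclin-dependent kinases, had 12, 20 and 12 counts with Gas5 and 17, 8 and 10 with GFP, a log2 fold change of 0.34 that was not called (adjusted p = 0.606). Phlda2, a maternally expressed placental growth gene, had 1 count in Gas5 A and 1 in GFP A. With these counts no difference was detected for Cdkn1c, and none could be tested for Phlda2.

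Among genes at single loci, Herc3 and Slc38a4 were lower with Gas5 without passing the test. Herc3, a ubiquitin ligase gene, stood at 112.5, 99.01 and 107.5 CPM with Gas5 and at 119, 121 and 131 CPM with GFP. The groups did not overlap, with a log2 fold change of -0.22 and a standard error of 0.061 (adjusted p = 0.0804). DESeq2 called it, at 0.0372. Slc38a4, a paternally expressed amino acid transporter gene, had 17, 14 and 12 counts with Gas5 and 22, 36 and 28 with GFP. GFP A, at 0.396 CPM, lay just above Gas5 A at 0.394 CPM, and GFP B and GFP C stood at 0.934 and 0.882 CPM. Its log2 fold change of -1.04 had a standard error of 0.377 (adjusted p = 0.154) and passed the test without GFP A alone, at -1.39 with an adjusted p of 0.0376. The score fit put it at -0.006.

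The remaining single-locus genes had log2 fold changes between -0.07 and 0.27 and none was called. Gnas, which encodes the stimulatory G protein alpha subunit, was at 20.1, 13.6 and 11.5 CPM with Gas5 and at 14.6, 12.5 and 15.7 CPM with GFP, with the highest and the lowest value of all 6 in the Gas5 group. Its span is shared by 44.1%. Plagl1, a paternally expressed zinc finger regulator of other imprinted genes, had a log2 fold change of -0.07. Rasgrf1, a paternally expressed exchange factor for Ras, stood at 376 CPM ± 34.6 with Gas5 and 378 CPM ± 19.5 with GFP (SD, n = 3 each), and Impact, a paternally expressed regulator of translation, at 207 CPM ± 10.8 and 208 CPM ± 10.85. Both had a log2 fold change of -0.01, with standard errors of 0.0753 and 0.0586. Igf2r, the clearance receptor for Igf2, had 0.06 with groups that did not overlap, at 56.1 to 59.1 CPM against 54.8 to 55.7 CPM. The phosphatase gene Inpp5f had 0.05, the trafficking gene Trappc9 0.01, the protease gene H13 0.09 and Commd1, measured on 292 bases with 6 to 24 counts per library, 0.27.

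Grouped by the copy known to be expressed, 2 of 11 tested paternally expressed genes rose (Dio3 and Zdbf2), with a median log2 fold change of 0.08 and 5 at an unadjusted p under 0.05. None of 11 maternally expressed genes was called, with a median of 0.11 and 2 at an unadjusted p under 0.05. Over all tested genes 5.44% were called and 21.4% had such an unadjusted p. DESeq2 called 1 of these 11, Copg2, and limma-voom none. Of 7 genes whose expressed copy depends on tissue or isoform, 2 rose (Grb10 and Blcap), with a median of 0.09. Whether the classes differ in calls was not tested.

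A list of 39 other genes reported as imprinted in at least 1 mouse tissue had 26 tested genes, with 1 higher (Ddc) and 0 lower (3 were lower at an unadjusted p under 0.05), or 3.85% beside 5.44% of all tested genes. Their median log2 fold change was 0.02. Besides Ddc the smallest p was that of Ampd3, an adenylate deaminase gene, at 32.2 CPM ± 2.44 against 27.6 CPM ± 0.510 (SD, n = 3 each), a log2 fold change of 0.22 (adjusted p = 0.0805). On this list 8 genes were at 0 in all libraries, and the whole span of each of these 8 lies in other genes.

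Factors that set, keep, read or erase imprints had 0 of 21 tested genes called in either direction with edgeR, beside 5.44% of all tested genes. Their median log2 fold change was -0.01. An unadjusted p under 0.05 was found for 1 of the 21, beside 21.4% of all tested genes. The gene with that p was Uhrf1, which guides Dnmt1 to newly copied DNA and is transcribed in dividing cells. It stood at 3.57, 1.89 and 1.63 CPM with Gas5 and at 0.882, 0.804 and 1.23 CPM with GFP, and the groups did not overlap. Its log2 fold change of 1.31 had a standard error of 0.328 and an adjusted p of 0.0576. DESeq2 called it, at 0.00414, and limma-voom called none of the list. Dnmt1, the maintenance methyltransferase, had a log2 fold change of 0.11 (adjusted p = 0.325). Zfp57 and its partner Trim28 had 0.01 and 0.06, and Ctcf, the insulator factor of the Igf2-H19 region, -0.01.

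The 50 tested genes that flank the imprinted genes on either side had 2 higher and 7 lower, or 18% beside 5.44% of all tested genes, and a median log2 fold change of 0.03. Some of the 9 called genes, among them Dio3os and 9330162G02Rik, lie within imprinted domains. The 18% is thus not a share for non-imprinted neighbours. Of these 9 calls, 4 are placeholder symbols. Besides Dio3os and Cobl they were Osbpl1a next to Impact, a lipid-binding protein gene that fell by 0.37 on the log2 scale, Ankrd34c next to Rasgrf1, which fell by 1.53, and B3gnt2 next to Commd1, a glycosyltransferase gene that fell by 0.37. Their adjusted p were 0.00809, 0.0135 and 0.0453. Impact and Rasgrf1 had log2 fold changes of -0.01 beside these. The smallest of these p, that of Osbpl1a, was 0.0518 when GFP B was left out and 0.0522 when GFP C was, and that of Ankrd34c was 0.0677 and 0.0623. The call for B3gnt2 was lost in all 6 fits that left out a library (0.0504 to 0.175), under upper quartile scaling (0.056) and with limma-voom (0.051).

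Markers of other cell types also differed between the libraries, and not all of the lists separated the groups. Gas5 A was the highest library for 16 of the 29 tested imprinted genes. Summed markers of hypothalamus, preoptic area and septum were at 211, 135 and 145 CPM with Gas5 and at 127, 114.5 and 112 CPM with GFP. Of 14 tested markers on that list 2 were called, both higher (Ecel1 and Baiap3), and Hmx2 and Hmx3 were at 0. Positive log2 fold changes were found for 9 of the 14 and negative ones for 5. At an edgeR unadjusted p under 0.05, 4 were higher and 2 lower. Choroid plexus markers summed to 30.3 to 36.5 CPM with Gas5 and 24.2 to 26.8 CPM with GFP. Of 6 tested, 1 was called, as higher, 5 had positive log2 fold changes, and Kcnj13 was at 0. Leptomeningeal fibroblast markers, from a tissue where Igf2 and H19 are known to be expressed, summed to 96.3, 63.1 and 72.6 CPM with Gas5 and 71.5, 71.0 and 83.2 CPM with GFP, with 0 of 8 called and Ogn at 0. Microglia markers summed to 305 to 333 CPM against 261 to 295 CPM, with 0 of 9 called and P2ry12 at 0. All 9 had positive log2 fold changes, 6 of them at an edgeR unadjusted p under 0.05, beside 21.4% of all tested genes. Oligodendrocyte markers summed to 1748 to 2207 CPM against 2244 to 2436 CPM, with 1 of 10 called, as lower. All 10 had negative log2 fold changes, 6 of them at an edgeR unadjusted p under 0.05. Astrocyte markers had 1 of 9 called, as higher, and endothelial and mural markers 1 of 10, as lower. Neuroblast markers had 1 of 7 called, as lower, and medium spiny neuron markers 1 of 14, as higher. Positive log2 fold changes were found for 7 of the 9, 5 of the 10, 5 of the 7 and 10 of the 14. The part of these markers other than the cortical list in the imprinted genes' values was not tested.

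**Figure D5:**
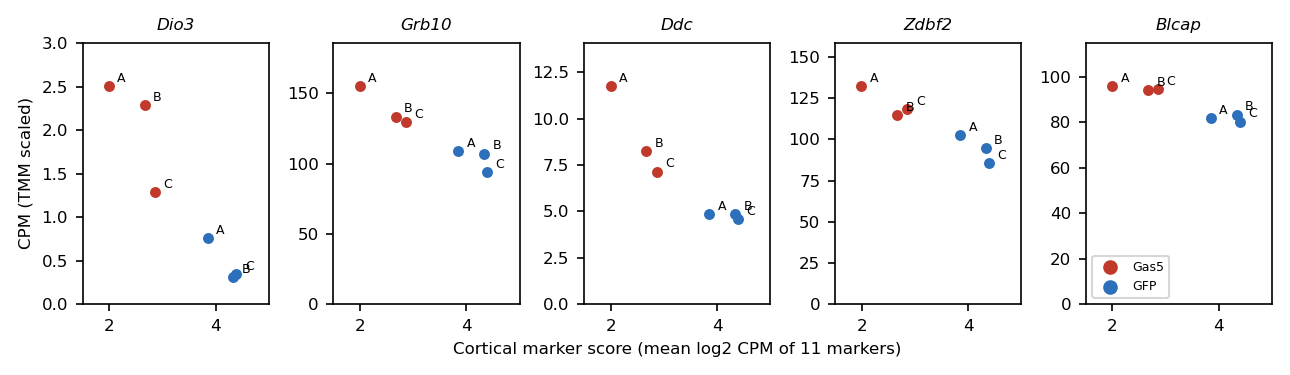
CPM of Dio3, Grb10, Ddc, Zdbf2 and Blcap in each library (vertical axes, each from 0) against the cortical marker score (mean log2 CPM of 11 markers). The 3 Gas5 libraries lie at scores of 1.997 to 2.86 and the 3 GFP libraries at 3.85 to 4.39, so that group and score separate the libraries in the same way.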

How the data were processed

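RNA from 6 nucleus accumbens samples had been depleted of ribosomal RNA and made into strand-marked libraries, per the labels' protocols. Listed in the submitters' processing notes, without their roles, are build GRCm38.p6 and tools that include STAR 2.7.0 and featureCounts 1.5.0-p3. Strand setting and annotation release: not given in the sources used here. Each deposited table holds raw gene counts, per the file headers. All 38 genes matched GENCODE M21 by coordinates and symbol.

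The tests used edgeR 4.0.16 under R 4.3.3 (default expression filter, TMM scaling, quasi-likelihood test, 2-sided, Benjamini-Hochberg adjustment over all 17563 tested genes, threshold 0.05) and limma 3.58.1. Standard errors come from dividing the log2 fold change by √F. CPM are TMM scaled, and logarithms use a pseudocount of 0.5. The fit was tested on simulated data. Promoters are from RefSeq (GRCm38.p6).

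The imprinted genes, the 2 lists of other imprinted genes and control factors, the 10 marker lists and the expressed alleles were chosen from general knowledge with earlier results of these data known. Flanking genes are the nearest tested gene on each side that is neither among the 38 nor on the list of other imprinted genes. Some of them lie within imprinted domains. Named genes are all 38, Gas5, and in each other list the called genes and the 2 of smallest p. Any further gene was named with its values in view. Alternatives were RLE and upper quartile scaling, no filter, a minimum of 1 CPM in 3 libraries, limma-voom, DESeq2 1.42.0, the replicate letter as a block, the cortical marker score as a covariate and leaving out each library.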

Additional observations from a re-analysis of the deposited data

How the results depend on the processing

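Over all tested genes 260 rose and 695 fell, against 656 higher without the expression filter, 483 with DESeq2, and 4 to 251 higher and 101 to 611 lower when a library was left out. Of the imprinted genes 4 rose and 0 fell. Without the filter 9 rose and 1 fell, with DESeq2 1 fell, and leaving out a library gave 0 to 5 higher and 0 to 1 lower. The other imprinted genes had 1 lower without the filter, and 0 to 2 higher when a library was left out. Of the control factors 1 rose without the filter and with DESeq2, and 0 to 1 when a library was left out. Of the flanking genes 1 rose with the filter of 1 CPM and with limma-voom, 4 fell under upper quartile scaling, and leaving out a library gave 0 to 1 higher and 0 to 6 lower. With the cortical marker score edgeR called 0 of all genes in either direction, and so 0 on every list. The cause of these shifts was not tested, beyond the wider span of genes tested without a filter.

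With the replicate letter as a block, 510 genes rose, among them 7 imprinted genes, 1 control factor and 1 flanking gene. Same-letter deviations from the group means correlated at 0.164, 0.179 and -0.094 for A, B and C. Different letters gave -0.227 to 0.056. The libraries lettered A and B thus correlated best with their own letter and those lettered C did not. Since not every same-letter value was above 0.1 and no label ties the letters to a batch, the samples were not taken as pairs.

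Gas5 was at 0.38 on the log2 scale with the score (adjusted p = 1.0). Leaving out a library gave 0.33 to 0.42, and the call was lost without GFP B or GFP C. With the score the log2 fold change turned to -0.19 for Peg3, -0.14 for Usp29, -0.98 for Zim1, -0.23 for Atp10a, -1.04 for Gnas, -0.085 for Zdbf2 and -0.40 for Dlk1. It was -0.04 for Rian, -0.057 for Grb10, -0.072 for Inpp5f, -0.052 for Igf2r, -0.11 for Commd1 and -0.21 for H13. Outside the 38 genes it was -0.13 for Ddc, -0.11 for Dnmt1, -0.31 for Uhrf1, 0.052 for B3gnt2 and 0.23 for Cobl. Upper quartile scaling gave 0.017 for Impact and 0.019 for Rasgrf1, and Rasgrf1 was at 0.00005 without the filter. Leaving out a library turned the sign of 8 uncalled genes, with ranges of -0.008 to 0.097 for Peg3, -0.012 to 0.133 for Atp10a, -0.187 to 0.231 for Gnas, -0.057 to 0.034 for Impact, -0.0012 to 0.101 for Inpp5f, -0.024 to 0.057 for Trappc9, -0.057 to 0.057 for Rasgrf1 and -0.057 to 0.816 for Commd1. Across the 29 genes and their alternatives, 343 of 403 values kept direction and side of the threshold, most of them for uncalled genes. Of 14 alternatives each, the called genes kept both in 8 for Blcap, 9 for Zdbf2, 11 for Dio3 and 11 for Grb10.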
